A study of Caenorhabditis elegans with 2 samples.

Results

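The histone genes of Caenorhabditis elegans were taken as the protein-coding genes whose name is his- followed by a number, which gave 72 of 19973 protein-coding genes. Binding of MEP-1, a zinc finger protein that acts with the chromatin remodeller LET-418 in a repressive complex, was measured at these genes by chromatin immunoprecipitation with sequencing. The material was whole L1 larvae of both sexes from strain OP102, which has the unc-119(tm4063) allele on III and wgIs102, an integrated transgene for GFP-tagged MEP-1, per the labels. The study holds 1 group of 2 biological replicates, so no condition is compared, and histone genes are set against all protein-coding genes. The cells of whole larvae were pooled, so strong binding in few cells and weak binding in many cannot be told apart. What drives the transgene is not stated in those labels, and no control library was analysed here.

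Core histones H2A, H2B, H3 and H4 form the spool around which DNA is wound in the nucleosome, and linker histone H1 binds the DNA between spools. Genes for replication-type core histones are carried in many copies and are mostly expressed when DNA is copied, and their messages typically end in a stem-loop in place of a poly(A) tail. Variant H3.3 is laid down also outside DNA replication, from genes that have introns more often. In C. elegans the core genes lie in small groups, where an H2A and an H2B gene, or an H3 and an H4 gene, are usually transcribed away from each other from the space between them.

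By their RefSeq product names, 64 of the 72 genes encoded core histones (17 H2A, 16 H2B, 15 H3 and 16 H4), 5 encoded H3.3-type proteins and 1, his-24, encoded linker histone H1. The other 2, his-39 and his-73, encoded proteins named only for a histone domain. With genes joined when they lay within 10 kb of each other, 67 genes fell into groups of at least 2 and 5 stood alone (his-24, his-71, his-72, his-73 and his-74). All 64 core genes were in groups. Among the 72 genes were 31 divergent pairs that held 62 of them, with 227 to 368 bp between the annotated 5' ends of the 2 genes. Ensembl annotated no untranslated region for 64 of the 72 genes, so their 5' end is the start of the coding sequence.

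Each gene was scored by whether a peak summit, the position of highest signal in a peak, lay in its promoter window, from 1000 bp upstream to 200 bp downstream of an annotated 5' end. The strictest list is the authors' optimal list of 4904 peaks, which they made by a step of irreproducible discovery rate (IDR), whose details are not given. Its peaks are ranked here by the authors' signal value, whose scale differs between lists and which serves only to order peaks within a list. The relaxed lists hold 30000 pooled, 30000 replicate 1 and 29149 replicate 2 peaks, many of them weak. Library depth is unknown, since read counts are not among the values. Coordinates are on ce11 (WBcel235) and are counted from 1.

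The sequences at 9 of the 13 histone summits are given first, since a shared word in them recurs below. Not printed are the second strongest, between his-67 and his-68 on I, and the 3 lowest-ranked. Each is the 101 bases centred on a summit of the optimal list, written 5' to 3' on the strand of the nearest histone gene, from the RefSeq assembly of WBcel235. Capitals mark the word ATGTGTCCCNGCAG, where N is any base, and the TATA box word TATAAA, on either strand.
his-37, chrV:9546975-9547075, + strand: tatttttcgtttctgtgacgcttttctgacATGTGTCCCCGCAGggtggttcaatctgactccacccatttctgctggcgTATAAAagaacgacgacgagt
his-31 and his-32, chrIV:8334105-8334205, + strand: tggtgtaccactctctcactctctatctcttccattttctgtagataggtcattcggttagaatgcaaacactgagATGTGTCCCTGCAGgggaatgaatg
his-72, farther summit, chrIII:12369688-12369788, - strand: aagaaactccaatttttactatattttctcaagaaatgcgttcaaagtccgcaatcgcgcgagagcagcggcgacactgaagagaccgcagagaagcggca
his-60 and his-59, chrIV:7488042-7488142, - strand: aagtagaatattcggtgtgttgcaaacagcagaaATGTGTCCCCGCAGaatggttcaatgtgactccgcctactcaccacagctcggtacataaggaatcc
his-61 and his-62, chrIV:7486327-7486427, - strand: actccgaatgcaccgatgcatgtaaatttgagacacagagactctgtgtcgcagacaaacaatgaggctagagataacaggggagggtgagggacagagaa
his-72, nearer summit, chrIII:12369136-12369236, - strand: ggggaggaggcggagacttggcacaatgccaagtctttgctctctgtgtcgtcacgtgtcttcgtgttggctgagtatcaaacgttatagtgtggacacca
his-24, chrX:14490009-14490109, + strand: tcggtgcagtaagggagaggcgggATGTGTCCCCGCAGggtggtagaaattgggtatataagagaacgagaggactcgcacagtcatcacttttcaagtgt
his-35 and his-41, chrV:9545421-9545521, + strand: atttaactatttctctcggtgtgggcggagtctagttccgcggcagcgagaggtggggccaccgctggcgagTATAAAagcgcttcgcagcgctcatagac
his-4 and his-3, chrV:16040599-16040699, - strand: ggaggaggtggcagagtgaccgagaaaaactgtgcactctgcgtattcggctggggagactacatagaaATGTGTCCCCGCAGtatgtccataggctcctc

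Of the 72 histone genes, 16 had an optimal summit in the promoter window (22.2%), against 3495 of all 19973 protein-coding genes (17.5%). The histone share was thus close to that of genes in general, and the 16 genes were reached by 13 distinct peaks because divergent neighbours share a peak. In the relaxed pooled list 25 of 72 histone genes had a summit, against 42.4% of all genes. In replicate 1 it was 22 of 72, against 43.4%, and in replicate 2 it was 22 of 72, against 45.3%. In the relaxed lists the histone share was therefore the lower of the 2, while among the strongest peaks it was not. No summit of any of the 4 lists lay in the windows of 44 histone genes, against 43.1% of all genes. The 16 genes with an optimal summit had a summit in all 4 lists, 9 more had one in the pooled list but not in the optimal list, and 3 (his-1, his-5 and his-6) had one in a single replicate's list alone.

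**Figure D1:**
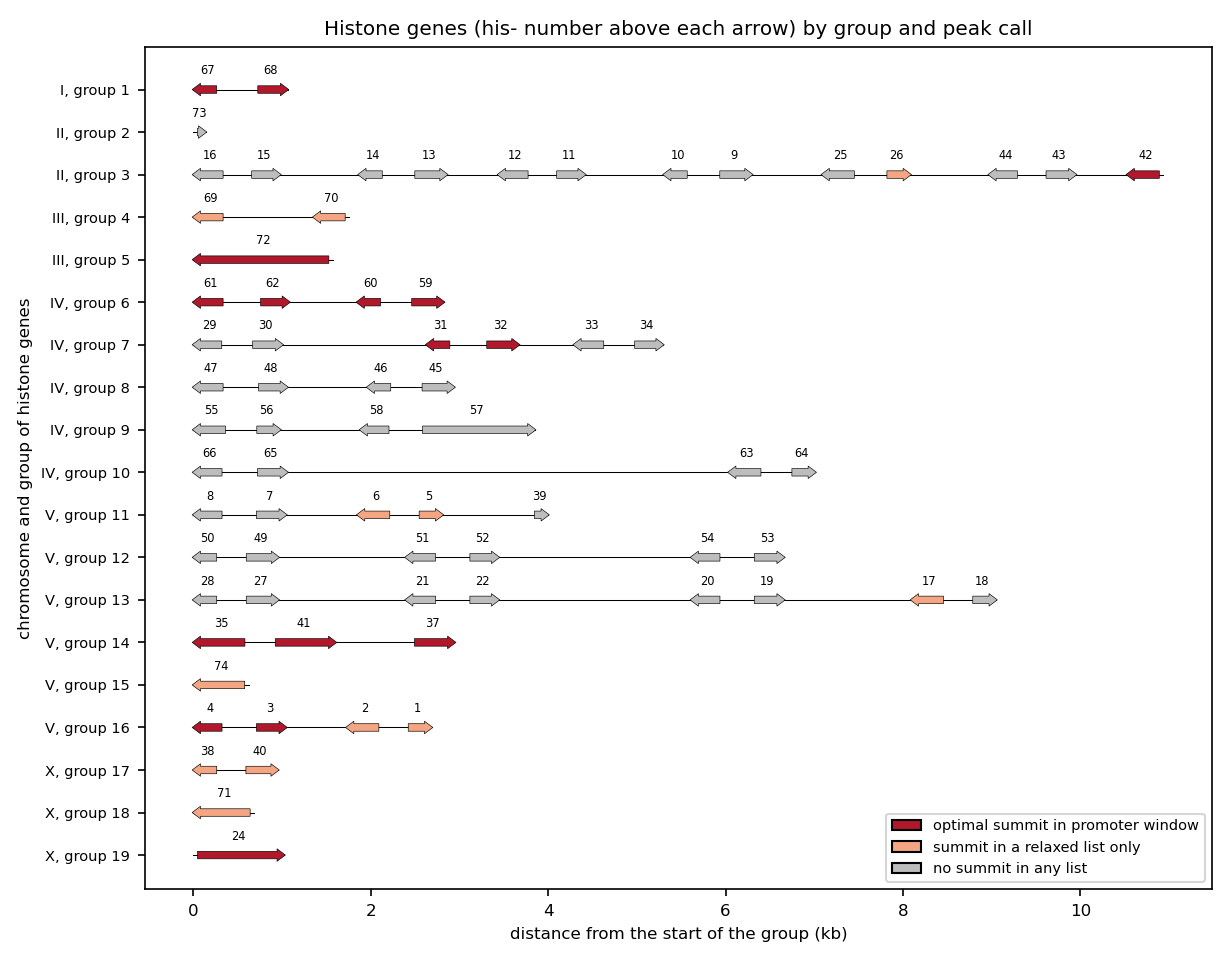
Map of the 72 histone genes in 19 groups, with distance from the start of each group in kb on the horizontal axis, one row per group, and arrows that point in the direction of transcription. Dark red arrows are the 16 genes with an optimal summit, light arrows the 12 with a summit in a relaxed list only, and grey arrows the 44 with none, which lie mostly in the large groups on II, IV and V.

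By far the strongest histone peak lay before his-37, an H4 gene with an intron, at chrV:9546862-9547154. It ranked 66 of 4904 with a signal of 418, and it ranked 61 in replicate 1 and 87 in replicate 2. Its summit was 80 bp upstream of the his-37 5' end, and no other protein-coding gene had it in its window. The his-37 peak was in the highest ranks in each replicate, well above every other histone peak.

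The next peak lay between his-67, an H4 gene, and his-68, an H2A gene, at chrI:9988897-9989109. It ranked 482 with a signal of 213, and it ranked 470 in replicate 1 and 586 in replicate 2. The Argonaute gene alg-5 also had this summit in its window. Only his-37, his-67 and his-68 had a summit among the first 1000 ranks, which makes 3 of 72 members. The share of all genes within the first 1000 ranks was not counted, so this is not set against genes in general.

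On IV, 3 peaks lay between divergent core genes. The one between his-31 (H4) and his-32 (H3), at chrIV:8334067-8334242, ranked 1003 with a signal of 150, and it ranked 1144 in replicate 1 and 725 in replicate 2. The one between his-60 (H4) and his-59 (H3), at chrIV:7488037-7488154, ranked 2068 with a signal of 94.8, and it ranked 2321 in replicate 1 and 1877 in replicate 2. The one between his-61 (H2A) and his-62 (H2B), at chrIV:7486306-7486456, ranked 2279 with a signal of 88.2, and it ranked 1843 in replicate 1 and 3600 in replicate 2. All 3 were among the 4904 highest peaks of each replicate, and in none of them did another protein-coding gene have the summit in its window. The peaks at his-67/his-68, his-31/his-32, his-60/his-59 and his-61/his-62 were narrow, with widths of 213, 176, 118 and 151 bp. They were the only 4 of the 13 histone peaks under 250 bp wide, and over the whole optimal list 27.6% of peaks were that narrow.

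On V, a group of 3 core genes with introns, his-35 (H2A), his-41 (H2B) and his-37, held summits in the windows of all its members. The peak between his-35 and his-41, at chrV:9545296-9545645, ranked 3334 with a signal of 64.2, and it ranked 2884 in replicate 1 and 4943 in replicate 2. C50F4.6 also had this summit in its window. A weaker summit lay within his-41 and the overlapping gene C50F4.6, at chrV:9546058-9546407, with a rank of 4861 and a signal of 45.6. It ranked 6855 in replicate 1 and 4525 in replicate 2, and the nearest protein-coding 5' end was that of C50F4.6, 141 bp away. This second peak was close to the end of the list and fell outside the 4904 highest of replicate 1.

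Also on V, a peak between his-4 (H2B) and his-3 (H2A), at chrV:16040474-16040823, ranked 3431 with a signal of 62.6, and it ranked 4406 in replicate 1 and 2295 in replicate 2. A second summit in the his-4 window, at chrV:16041309-16041658, lay 676 bp downstream of the his-3 5' end. It ranked 4843 with a signal of 45.8, and it ranked 4655 in replicate 1 and 5749 in replicate 2. The neighbouring pair his-2 (H3) and his-1 (H4) had no optimal summit in its windows. The single peak on II was at his-42 (H3), at chrII:13829136-13829485, with a rank of 4879 and a signal of 45.5. It ranked 5728 in replicate 1 and 5152 in replicate 2, outside the 4904 highest of both. Its summit was 614 bp from the his-42 5' end and 25 bp from that of the non-coding RNA gene R05D7.8, inside the genes F08G2.10 and F08G2.15.

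**Figure D2:**
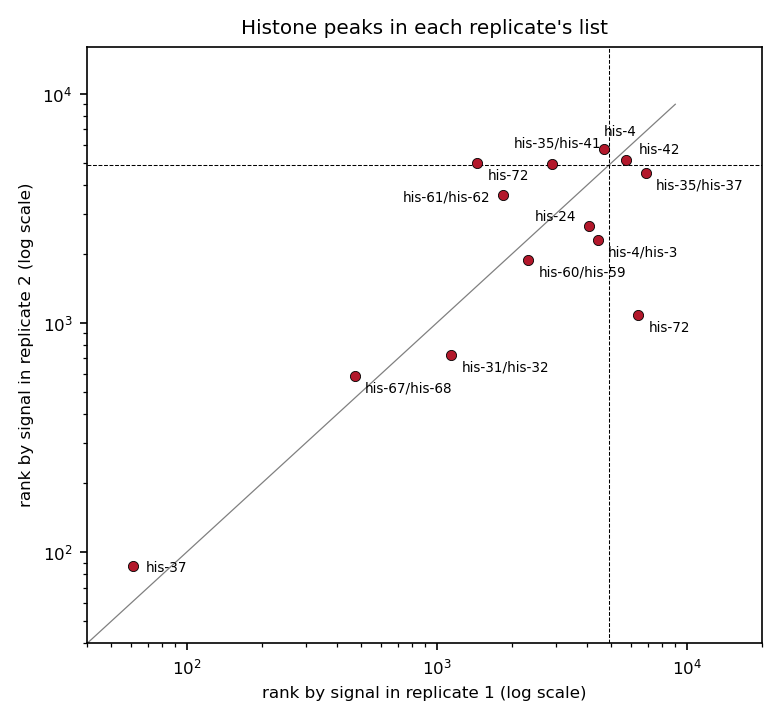
Rank by signal of the 13 histone peaks in replicate 1 (horizontal) and replicate 2 (vertical), both on log scales, with 1 point per peak, a grey line of equal rank and dashed lines at rank 4904. The his-37 peak ranked 61 and 87, and 7 of the 13 peaks lie within rank 4904 in both replicates.

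Among the variant genes, his-24 and his-72 had optimal summits. At his-24, the linker histone H1 gene, the peak at chrX:14489884-14490233 ranked 3221 with a signal of 65.9, and it ranked 4058 in replicate 1 and 2660 in replicate 2. Its summit was 35 bp upstream of the his-24 5' end, within the non-coding RNA gene M163.19. At his-72, an H3.3 gene, there were 2 summits. The nearer one, 136 bp upstream at chrIII:12369011-12369360, ranked 2975 with a signal of 70.3, and it ranked 6378 in replicate 1 and 1085 in replicate 2. The farther one, 688 bp upstream at chrIII:12369563-12369912, ranked 2020 with a signal of 96.3, and it ranked 1455 in replicate 1 and 4974 in replicate 2. The replicates thus ordered the 2 his-72 summits in opposite ways. The farther summit also lay in the window of rpt-6, a proteasome subunit gene.

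In their windows, the other H3.3-type genes had summits only in relaxed lists. Outside the windows, the nearest optimal summit lay 648 bp from the 5' end of his-69 and 735 bp from that of his-74. For his-70 it was 2024 bp away and for his-71 3495 bp. The H3.3 gene his-71, which has introns, had its best pooled summit at rank 9274. The best summit in its window ranked 7207 in the replicate 1 list and 5862 in the replicate 2 list, each taken separately. For his-69 the best pooled rank was 13043, for his-70 it was 18410 and for his-74 it was 29012. All 6 variant genes therefore had a pooled summit, against 42.4% of all genes. Of the lone genes, his-73 had no summit in any list. The 5 members without an optimal summit that had the best pooled ranks were his-71, his-26 (rank 11853), his-69, his-70 and his-17 (rank 20037). Between the last member inside the optimal list, his-42 at rank 4879, and the first outside it there was thus a wide gap in rank.

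Counted by type, an optimal summit was found for 4 of 17 H2A, 3 of 16 H2B, 3 of 15 H3, 4 of 16 H4 and 1 of 5 H3.3-type genes, for his-24 and for neither his-39 nor his-73. A summit between divergent genes counts for both, so the counts of paired core types are tied to each other and say little about type. Over all protein-coding genes the share was 17.5%. By position, 14 of 67 grouped genes and 2 of 5 lone genes had one. The 2 lone genes were his-24 and his-72, too few to set against the groups. By chromosome, it was 2 of 2 histone genes on I, against 24.5% of all genes there, 1 of 14 on II, against 16.5%, and 1 of 3 on III, against 26.7%. It was 6 of 22 histone genes on IV, against 16%, 5 of 27 on V, against 11.5%, and 1 of 4 on X, against 15.3%.

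Whole groups were called or missed together in several cases. All 4 genes of the group his-61, his-62, his-60 and his-59 on IV had a summit in each of the 4 lists. In the group of 6 genes around his-31 on IV, only the middle pair did. The groups of 4 genes each around his-45, around his-55 and around his-63, also on IV, had none in any list. Of the 13 genes of the group on II, his-42 had an optimal summit, his-26 a pooled one at rank 11853, and the other 11 none in any list. On V, the groups of 6 genes around his-51 and of 8 genes around his-21 held a single called member, his-17.

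Many histone genes are near-exact copies of each other, and the copied sequence reaches into the promoter windows. For each window the share of its 36-base words that occur again anywhere in the nuclear genome, on either strand, was taken as its repeated share. Windows with at least 50% are called mostly repeated here, a bound chosen after the values were seen. The nearest histone windows had 49.8% (his-8) below it and 64.8% (his-17) above it. By this measure 40 of 72 histone genes (55.6%) had a mostly repeated window, against 616 of 19973 genes (3.08%). How reads that match several places were treated in calling peaks is not given in the sources used here.

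None of the 40 histone genes with a mostly repeated window had an optimal summit, against 1.79% of all 616 such genes. Of the 32 histone genes with a mostly unique window 16 had one, against 18.0% of all 19357 such genes. In the pooled list it was 2 of 40 histone genes, against 6.17% of all mostly repeated genes. It was 23 of 32 histone genes, against 43.6% of all mostly unique genes. No summit of any list was found for 38 of the 40, against 90.3% of all mostly repeated genes, and for 6 of the 32, against 41.6% of all mostly unique genes. With words of 50 or 100 bases the same counts of 40 and 32 genes resulted, with 0 and 16 optimal summits. The repeated share thus moved with the call, both in histone genes and in genes at large. Its part in the missing calls was not tested. One called peak was itself mostly repeated, that of his-42, where 53.6% of the 36-base words of the peak occur again, although the his-42 window is 32.3% repeated.

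Other splits of the histone genes moved with the repeated share. All 6 variant genes had a mostly unique window and a pooled summit, while 40 of the 64 core genes had a mostly repeated window. Among the 24 core genes with a mostly unique window, 17 had a pooled summit, and 2 of the other 40 did. Likewise, 1 of the 8 histone genes with an intron and 39 of the 64 with a single exon had a mostly repeated window. An optimal summit was found for 5 of the 8 histone genes with an intron, against 17.8% of all genes with an intron, and for 11 of the 64 with a single exon, against 10.2% of all single-exon genes. With mostly unique windows only, it was 5 of 7 histone genes with an intron, against 18.2%, and 11 of 25 with a single exon, against 11.5%. Of the 5 called genes with an intron, 3 (his-35, his-41 and his-37) belong to 1 group and share peaks.

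**Figure D3:**
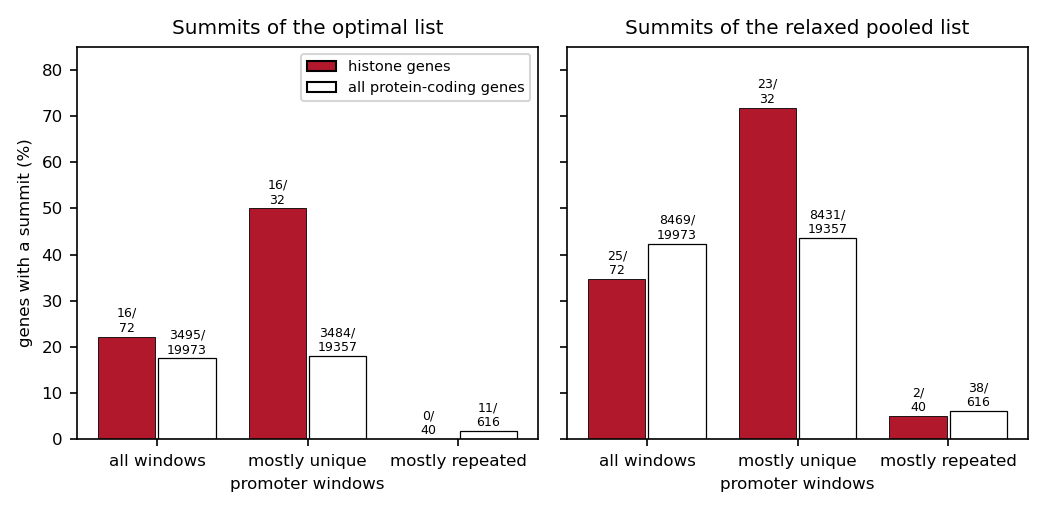
Share of histone genes (dark red) and of all protein-coding genes (white) with a summit of the optimal list (left) or the relaxed pooled list (right) in the promoter window, as percent, for all, mostly unique and mostly repeated windows. Counts stand above the bars, and for the optimal list they are 16 of 32 histone genes and 3484 of 19357 genes with a mostly unique window.

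Within the core genes alone, the repeated share ran from 0 to 33.6% with a median of 12.6% in the 14 genes with an optimal summit. In the 50 core genes without one it ran from 14.2 to 100% with a median of 96.9%. The ranges overlapped, so that a mostly unique window did not always go with a peak. Of the 24 core genes with a mostly unique window, 14 had an optimal summit and 10 did not. Those 10 were his-63 and his-64 on IV, his-8, his-7, his-6, his-5, his-2 and his-1 on V, and his-38 and his-40 on X. In these, his-2 had a pooled summit at rank 25281, his-38 and his-40 shared one at rank 27026, his-5 and his-6 shared one in replicate 2 at rank 9395, and his-1 had one in replicate 1 at rank 4655, the same replicate 1 peak that overlaps the second his-4 peak.

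**Figure D4:**
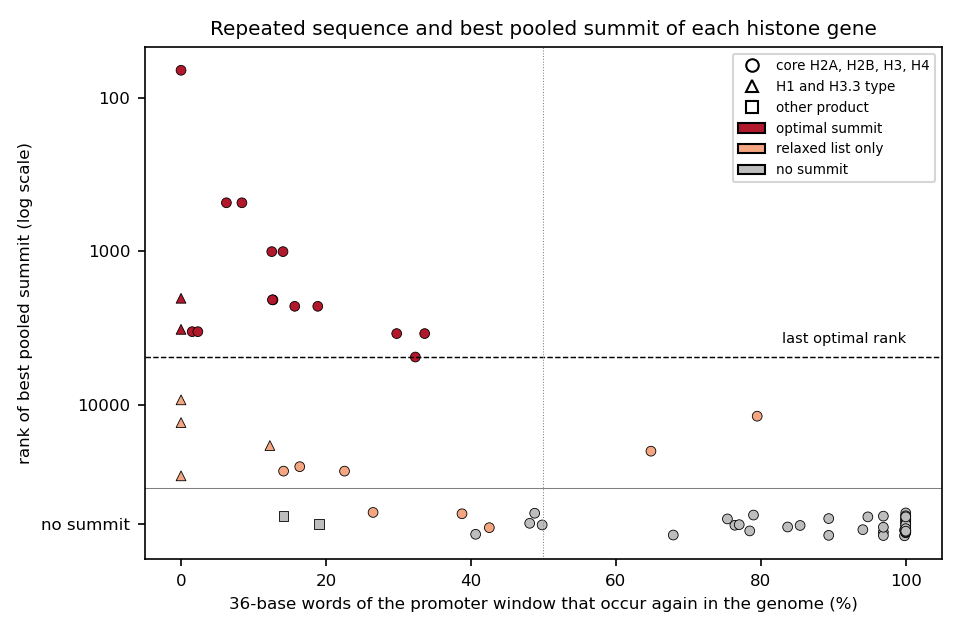
Repeated share of the promoter window in percent (horizontal) against the rank of the best pooled summit on a log scale with the strongest at the top (vertical), 1 point for each of the 72 histone genes, with genes without a pooled summit spread slightly along the bottom. Dark red points (optimal summit) all lie at a repeated share of 33.6% or less, and the best-ranked point is his-37 at rank 66.

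The space between divergent genes showed the same split. An optimal summit lay between the 2 genes in 6 of the 31 divergent histone pairs, against 34.2% of 1695 divergent pairs of neighbouring protein-coding genes at most 1000 bp apart. It was 3 of 16 H2A/H2B pairs, 2 of 14 H3/H4 pairs and the 1 H2A/H4 pair. In all 6 pairs with a summit, none of the 36-base words of the space occurred elsewhere in the genome. Of the 25 pairs without one, 17 had a space that was repeated throughout and 5 had one under 50% repeated. Along the space from the left gene to the right, the summits stood at 61.7% (his-67/his-68), 48.9% (his-61/his-62), 39.1% (his-60/his-59), 53.6% (his-31/his-32), 74.1% (his-35/his-41) and 45.9% (his-4/his-3). Most of these summits were thus near the middle, with the his-35/his-41 summit nearest to a gene, 65 bp from the his-41 5' end.

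**Figure D5:**
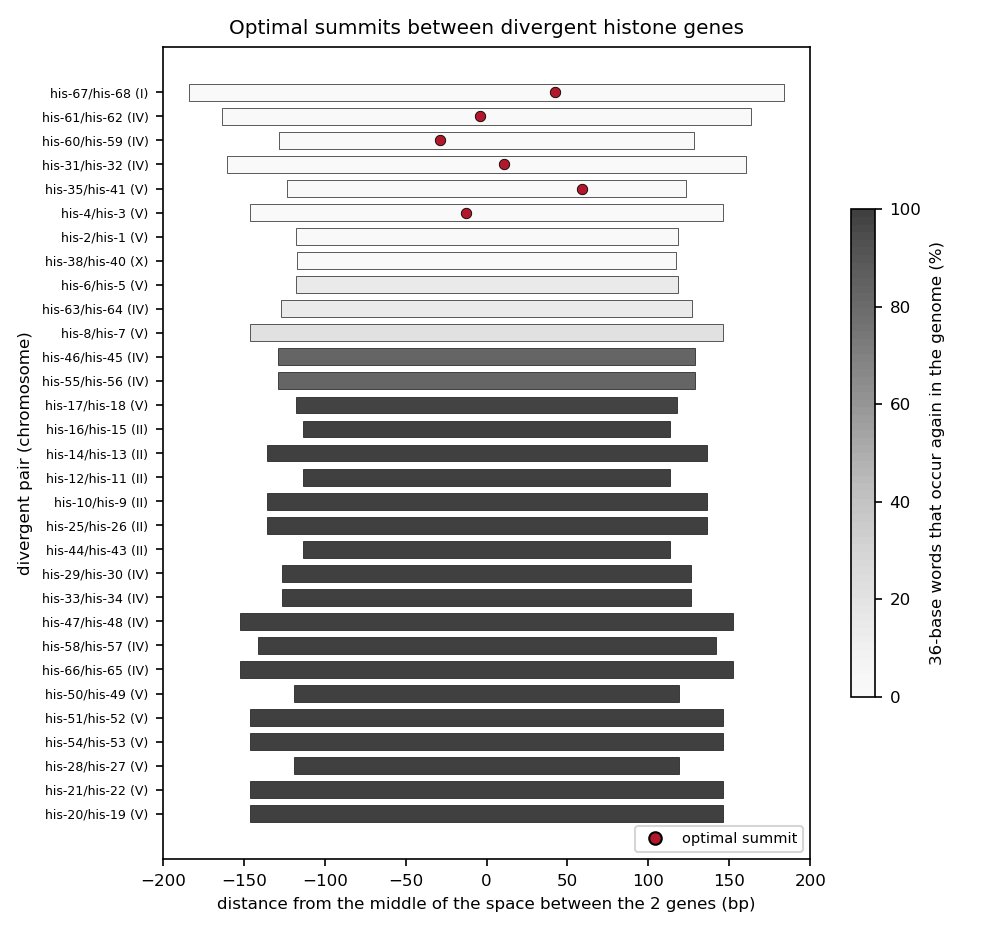
The space between the annotated 5' ends of the 31 divergent histone pairs, each bar drawn to scale in bp around its middle and shaded by the share of its 36-base words that occur again in the genome. Dark red dots are the 6 optimal summits, all in spaces with a repeated share of 0%.

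Whole spaces were copied exactly. The 227 bp between his-16 and his-15 on II were the same, base for base, as those of his-12/his-11 and his-44/his-43. The 272 bp of his-14/his-13 were the same as those of his-10/his-9 and his-25/his-26. On V a space of 292 bp was shared by his-51/his-52, his-54/his-53, his-21/his-22 and his-20/his-19, and one of 238 bp by his-50/his-49 and his-28/his-27. On IV one of 253 bp was shared by his-29/his-30 and his-33/his-34, and one of 305 bp by his-47/his-48 and his-66/his-65. In all, 0 of the 6 pairs with a summit and 16 of the 25 without one had an exact copy. The space of his-58/his-57, counted as having no exact copy, was 283 bp long. All 283 bases were matched within the 305 bp of his-66/his-65, so it differed only in its annotated length. The closest other space of the same type of pair was 52 to 88.7% identical for the 5 pairs with a summit that had one to compare, since his-67/his-68 is the only H2A/H4 pair. For pairs without a summit it was 89.4 to 100% identical, so these 2 ranges did not overlap but nearly met. Nearest to each other were his-4/his-3 (88.7%) with a summit and his-38/his-40 (89.4%) without one, both with a space 0% repeated.

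The most alike spaces of a pair with a summit and a pair without one were those of his-4/his-3 and of his-51/his-52. The first had a summit, and the second had none and is 1 of 4 exact copies. The 2 spaces are 292 bp each and share 259 bases (88.7%). They are shown 5' to 3' from the H2B to the H2A gene, with the 33 bases that differ in capitals.
his-4/his-3, chrV:16040516-16040807, + strand: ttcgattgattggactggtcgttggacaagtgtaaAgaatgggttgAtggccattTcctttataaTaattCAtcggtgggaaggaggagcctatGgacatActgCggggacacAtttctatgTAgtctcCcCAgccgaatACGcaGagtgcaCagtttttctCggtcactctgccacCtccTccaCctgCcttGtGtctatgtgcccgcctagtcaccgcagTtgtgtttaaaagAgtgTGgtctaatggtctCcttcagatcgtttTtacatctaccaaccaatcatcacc
his-51/his-52, chrV:8850172-8850463, - strand: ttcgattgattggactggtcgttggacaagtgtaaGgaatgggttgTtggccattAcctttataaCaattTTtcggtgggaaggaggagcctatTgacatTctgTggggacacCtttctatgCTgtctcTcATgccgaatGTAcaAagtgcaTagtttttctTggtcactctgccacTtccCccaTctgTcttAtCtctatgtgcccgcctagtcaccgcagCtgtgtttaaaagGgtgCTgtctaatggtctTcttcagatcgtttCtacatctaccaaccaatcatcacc

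A word shared by several of the summit sequences printed above was sought after they had been seen, so its counts describe these data and do not test it. ATGTGTCCCNGCAG, with N as any base and on either strand, was the longest word with 1 open position that lay within 50 bp of 6 of the 13 histone summits. It lay near 7 of all 4904 summits (0.143%), the same 6 included. The distance from its centre to the summit was 8 bp at his-67/his-68, 10 bp at his-60/his-59, 14 bp at his-37, 20 bp at his-24, 26 bp at his-4/his-3 and 32 bp at his-31/his-32. The space between his-61 and his-62 held the word too, farther than 50 bp from its summit. Neither his-72 summit nor that of his-35/his-41 had it. The word was thus present at the H1 gene his-24 and the spliced H4 gene his-37 as well as in divergent core pairs.

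In the nuclear genome the word occurred 39 times, and 17 of these lay within 1000 bp of the 5' end of a his- gene. In promoters, taken as 250 bp upstream to 50 bp downstream of the 5' end, it was found in 30 of 72 histone genes (41.7%), against 33 of all 19973 genes (0.165%). Of the 33 promoters with this word, 30 were therefore promoters of his- genes. These 30 include both genes of 14 divergent pairs, and some of the pairs have exactly copied spaces, so they are not 30 separate sites. The other 22 matches in the genome lay farther than 1000 bp from the 5' end of any his- gene. Histone genes outside the his- family were not part of this distance, and the linker histone gene hil-2 had the word in its promoter. Of the 30 histone genes with the word 12 had an optimal summit in the window, against 4 of the 42 without it. This contrast is no support for the word, which was picked from these summits. The 12 genes also include both members of 5 divergent pairs, each with a shared peak. The his-4/his-3 space had the word and the his-51/his-52 space did not.

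Pairs were also counted by the word and by the repeated share of their space. Both the word and the 50% bound were set after the values were seen. Of the 11 pairs with a space under 50% repeated, 6 had the word and 5 of these had a summit, while 1 of the 5 without the word did. Of the 20 pairs with a space at least 50% repeated, 8 had the word and 0 had a summit. Since the word was picked from the summits, its presence at 5 of the 6 pairs with a summit follows in part from that choice. Its last 10 bases alone, GTCCCNGCAG, were found in the same number of histone promoters, 30 of 72, and in 0.2% of all promoters.

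Pairs with the word and without an optimal summit are shown by his-12/his-11, whose space is an exact copy of 2 others, and by his-6/his-5, whose space is only 14.4% repeated. Capitals mark the same words as in the summit sequences. For his-6/his-5 a summit lay between the genes in replicate 2 at rank 9395, and none in the other lists.
his-12/his-11, chrII:13821582-13821808, - strand: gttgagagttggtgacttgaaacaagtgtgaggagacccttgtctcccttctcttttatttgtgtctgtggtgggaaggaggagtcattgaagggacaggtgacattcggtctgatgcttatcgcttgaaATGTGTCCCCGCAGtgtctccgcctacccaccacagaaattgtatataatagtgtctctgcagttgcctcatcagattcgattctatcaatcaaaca
his-6/his-5, chrV:8534978-8535213, + strand: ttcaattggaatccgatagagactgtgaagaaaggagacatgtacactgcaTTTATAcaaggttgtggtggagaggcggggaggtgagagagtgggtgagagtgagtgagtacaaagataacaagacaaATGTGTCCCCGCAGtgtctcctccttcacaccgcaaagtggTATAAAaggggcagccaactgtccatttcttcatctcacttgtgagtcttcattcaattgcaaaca

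Other short words were counted in the same way. TATAAA lay within 50 bp of 3 of the 13 histone summits, against 5.22% of all summits, and in 47 of 72 histone promoters, against 38.0% of all promoters. CCAAT, the word of a common promoter box, lay near 4 of 13 histone summits, against 15.1%, and in 39 of 72 histone promoters, against 45.7%. GACGCA was near 1 of 13 histone summits, against 15.8% of all summits, and GAGACG near 1 of 13, against 18.0%. Both of these lay near the his-67/his-68 summit. The median GC content within 50 bp was 48.5% for the histone summits and 44.6% for all summits.

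Genes outside the his- family that act with histones were listed by role, with earlier results known. Of 11 other histone genes, 4 had an optimal summit in the window, against 17.5% of all protein-coding genes. The strongest was at htz-1, the H2A.Z gene, at rank 170 with a signal of 309, although the nearest protein-coding 5' end was that of wapl-1. The linker histone genes hil-7 and hil-3 had ranks of 495 and 4222, and hcp-3, the centromeric H3 gene, a rank of 2845. The other 6 linker genes and cpar-1 had none.

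Of 12 histone chaperone and assembly genes, 7 had an optimal summit. The strongest was at lin-53, which encodes a histone-binding protein of several chromatin complexes, at rank 101 with a signal of 381, where nra-2 had the nearest protein-coding 5' end. It was followed by nap-1 (rank 1291), the chromatin assembly factor genes chaf-2 (rank 1801) and chaf-1 (rank 1936), hmg-4 (rank 2772), unc-85 (rank 3546) and xnp-1 (rank 3827). The genes asfl-1, rba-1, hira-1, spt-16 and hmg-3 had none. Of 8 genes for 3' end processing of histone and other messages that were matched by name, 5 had one. These were cpsf-1 (rank 513), symk-1 (rank 650), cdl-1 (rank 941), which encodes the protein that binds the histone stem-loop, cpf-1 (rank 1519) and cpf-2 (rank 2521). At hmg-4 and symk-1 another gene, T20B12.3 and F25G6.9 in turn, had the nearest protein-coding 5' end. The same share over all protein-coding genes was 17.5%.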

How the data were processed

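Peaks were called by the authors on each replicate and on both pooled, with a control, and an optimal list was made from these by an IDR step, per the deposited file lists. Aligner, peak caller, versions and the IDR threshold were not given in the sources used here. Column 7 is the authors' signal value per peak and served only for ranks. Column 9 is the authors' deposited −log10 q value, which reaches a ceiling and was not used for ranking. The optimal list was checked to be the 4904 highest-signal pooled peaks. The ce10 lists were not used, and coordinates were not converted. No read counts are given, so depth is unknown and no interval is printed.

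Genes came from Ensembl release 115 on WBcel235. Ensembl gives the 72 members only 50 distinct names, some shared by several copies, so all 72 were named by gene ID from the RefSeq annotation of the same build. Histone type was taken from RefSeq product names, in place of the planned protein identity, since no protein table was given. Peaks with a summit in the windows of 2 genes count for both genes and once as a peak. The best-ranked peak of a replicate that overlaps an optimal peak gave its replicate rank. Repeated share was counted over words of 36 bases, or 50 and 100, in the nuclear genome. Identity between spaces came from global alignment (match 1, mismatch -1, gap -2 and -0.5 for each further base). Shares of all genes by chromosome and by exon number were added after the data were seen. The window and repeat counts were checked on made-up data.

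The genes named are all members with an optimal summit, all lone and variant members, and the 5 others with the best pooled rank, plus members given as examples of a group or pair after their values were seen. Of the list of 3' end processing genes, lsm-10 and lsm-11 matched no gene name. The members and gene lists were chosen with earlier results of these data known. No test was run, since there is 1 group and peaks are shared between neighbours. Counts were made with pandas 2.3.3 and numpy 2.4.6 under Python 3.11.15, alignments with Biopython 1.88 and plots with matplotlib 3.10.9.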

Additional observations from a re-analysis of the deposited data

How the results depend on the processing

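The 5 counts were made again under 13 alternative settings, which gave 59 recounts, of which 46 stayed within 1.5 times the main count. With only the higher-signal 50% of the optimal peaks, 10 histone genes had a summit, 9 of them grouped and 1 lone, from 6 peaks, and 2270 of all genes did. With the relaxed pooled list it was 25 histone genes, 4 of them lone, from 25 peaks, and 8469 of all genes. With only peaks among the highest of both replicates, 12 histone genes, of which 1, his-24, was lone, and 7 histone peaks were counted, and 2954 of all genes. With each summit given only to the nearest protein-coding 5' end, 10 histone genes had one, 8 of them grouped, and 2649 of all genes did. From the highest peaks of a single replicate, the counts were 14 to 16 histone genes, 12 to 14 grouped genes, 2 lone genes with either, 9 to 11 peaks and 3471 to 3594 of all genes. The cause of these moves was not tested. The restriction to mostly unique windows, chosen after seeing the data, kept all 16 genes and 13 peaks, and 3484 of all genes. For the histone genes this outcome was fixed in advance, since the bound was set when none with a mostly repeated window had an optimal summit. Its recounts are nonetheless among the 46 that stayed within 1.5 times. No paired analysis was possible because there is only 1 group and no test. Depth is unknown, so a missing call does not show an absence of binding.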

Other observations

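Outside the histone windows, 1 optimal summit had the word ATGTGTCCCNGCAG within 50 bp. It ranked 3822 (chrII:13016463-13016618) and lay 2191 bp from the nearest 5' end, that of the kinase gene max-2. The 3 genes outside the his- family with the word in the promoter were hil-2, a linker histone gene without an optimal summit, fbxb-107, also without one, and K07C5.13, which had one in its window.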
